A study of Mus musculus with 12 samples.

Results

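The collagen genes are the genes that encode the chains of the collagen triple helix. They were taken here as every probe whose gene symbol, as deposited or brought up to date through the RefSeq gene table, reads Col, a number, a and a second number. That gave 43 genes and 100 probes, out of 18295 genes and 41174 gene probes on the array. Of the 100 probes, 96 carried such a symbol in the file, and the other 4 were named Emid2 (now Col26a1) and Dvwa (now Col6a4). Col6a5 had no probe among them. By the structure their chains form, 11 genes were fibrillar collagens, 8 were collagens of the basement membrane (type IV and the multiplexins XV and XVIII), and 24 were other collagens. In 30 genes more than 1 probe was present, and each gene is represented by its brightest probe unless another is named. For 29 of the 43 genes that probe was brighter than the median of all gene probes.

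The cells were 3T3-L1, a mouse preadipocyte line that stores lipid once differentiated. Mature adipocytes of this line were transfected by Amaxa electroporation with a control small interfering RNA (control-si), with one against Usp7 (USP7-si) or with one against TIP60, whose gene is Kat5 (TIP60-si), and were lysed 2 days later. All 3 groups therefore share the differentiation and the electroporation, and no untransfected adipocytes were on the arrays. Usp7 encodes a deubiquitinase and Kat5 a histone acetyltransferase, and the title of the series places them in a pathway of early adipogenesis. Each of the 12 two-colour arrays, 4 per group, carried 1 adipocyte sample together with the oppositely labelled reference, a single RNA made from 3T3-L1 cells before differentiation. The sample was labelled with Cy3 on replicates 1 and 3 and with Cy5 on replicates 2 and 4 of every group. The labels call the 4 arrays of a group replicates without saying whether they were separate cultures, so p-values measure the spread between these samples, which may be technical.

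Collagens are the main proteins of the extracellular matrix. Fibrillar chains such as those of types I and III assemble into fibrils, type IV chains form the sheet of the basement membrane that surrounds each fat cell, and type VI chains form beaded filaments that are abundant in adipose tissue. Fibroblast-like preadipocytes deposit a fibrillar matrix, which is remodelled towards a basement membrane as they become fat cells.

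The start regions of the collagen genes on which the results turn are shown here because Col6a1, Col6a2 and Col6a3 were called in one direction between the knockdowns, calls that were each lost without any of several single arrays, and because Col4a1 and Col4a2 are transcribed head to head from one shared region. The sequences are from RefSeq on GRCm38.p6 and run 5′ to 3′ along the strand of the gene, from 250 bases before its start to 50 after it. The windows are chr6:4505368-4505667 (plus strand) for Col1a2, chr8:11312777-11313076 (minus) for Col4a1, chr8:11312555-11312854 (plus) for Col4a2, chrX:141475169-141475468 (plus) for Col4a5, chr10:76725995-76726294 (minus) for Col6a1, chr10:76623581-76623880 (minus) for Col6a2 and chr1:90843922-90844221 (minus) for Col6a3. The table holds a further Col6a2 start, not printed. Col1a1 and Col12a1 are named only. Capitals mark the CCAAT box, searched as CCAAT on the strand shown and as ATTGG for the other strand, a motif bound by the factor NF-Y.
Col1a2: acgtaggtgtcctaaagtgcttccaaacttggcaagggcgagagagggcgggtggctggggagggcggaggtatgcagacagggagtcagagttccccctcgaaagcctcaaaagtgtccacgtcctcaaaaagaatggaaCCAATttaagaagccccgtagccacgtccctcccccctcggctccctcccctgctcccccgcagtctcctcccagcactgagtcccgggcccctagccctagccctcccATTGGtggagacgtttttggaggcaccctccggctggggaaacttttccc
Col4a1: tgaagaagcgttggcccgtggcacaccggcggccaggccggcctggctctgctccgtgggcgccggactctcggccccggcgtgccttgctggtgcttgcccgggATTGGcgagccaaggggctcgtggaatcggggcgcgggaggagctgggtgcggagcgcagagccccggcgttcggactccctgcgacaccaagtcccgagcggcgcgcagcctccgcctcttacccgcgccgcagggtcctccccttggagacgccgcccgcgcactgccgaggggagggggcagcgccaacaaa
Col4a2: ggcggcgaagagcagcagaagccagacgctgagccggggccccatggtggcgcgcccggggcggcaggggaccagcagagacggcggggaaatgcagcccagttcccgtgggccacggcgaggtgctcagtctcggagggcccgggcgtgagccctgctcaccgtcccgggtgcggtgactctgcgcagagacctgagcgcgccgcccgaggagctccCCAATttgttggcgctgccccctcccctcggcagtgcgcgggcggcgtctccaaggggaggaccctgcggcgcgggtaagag
Col4a5: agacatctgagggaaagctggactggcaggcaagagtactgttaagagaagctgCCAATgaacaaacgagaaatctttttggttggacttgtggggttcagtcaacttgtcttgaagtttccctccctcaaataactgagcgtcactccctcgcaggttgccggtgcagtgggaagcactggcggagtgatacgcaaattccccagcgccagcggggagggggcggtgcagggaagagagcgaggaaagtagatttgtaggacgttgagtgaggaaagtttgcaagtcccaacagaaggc
Col6a1: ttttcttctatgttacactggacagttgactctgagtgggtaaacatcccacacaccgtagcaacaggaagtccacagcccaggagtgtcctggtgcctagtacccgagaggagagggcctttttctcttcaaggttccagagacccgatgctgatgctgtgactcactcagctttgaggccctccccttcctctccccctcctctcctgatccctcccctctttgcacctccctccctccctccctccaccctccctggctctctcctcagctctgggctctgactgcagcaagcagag
Col6a2: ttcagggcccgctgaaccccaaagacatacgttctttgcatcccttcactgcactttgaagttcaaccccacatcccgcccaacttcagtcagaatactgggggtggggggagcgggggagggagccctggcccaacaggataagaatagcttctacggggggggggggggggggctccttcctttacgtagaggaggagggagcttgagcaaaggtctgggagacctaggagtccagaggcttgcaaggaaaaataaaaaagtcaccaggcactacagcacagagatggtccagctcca
Col6a3: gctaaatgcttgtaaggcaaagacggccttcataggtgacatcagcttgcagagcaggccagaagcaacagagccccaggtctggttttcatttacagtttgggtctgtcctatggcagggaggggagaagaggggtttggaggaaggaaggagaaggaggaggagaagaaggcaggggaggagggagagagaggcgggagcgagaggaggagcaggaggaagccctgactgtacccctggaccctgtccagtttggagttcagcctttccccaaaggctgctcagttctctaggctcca

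The Col1a2 window held a CCAAT at -109 from the start and an ATTGG at 1. Col4a1 held 1 match at -145, Col4a2 1 at -32 and Col4a5 1 at -196, while these letters were not in the windows of Col6a1, Col6a2 and Col6a3. The Col4a1 and Col4a2 windows shared 78 bases. Promoter windows were found for 34 of the 43 collagen genes, 37 windows in all, of which 13 held the motif on either strand. Among all 32851 windows of the same length 37.4% held it. A match describes the letters and is not shown to be a binding site.

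The small interfering RNAs lowered their targets: Usp7 in USP7-si to 0.320 of control-si and Kat5 in TIP60-si to 0.500, with all 4 arrays of the targeted group below all 4 of control-si (limma, adjusted p = 1.16e-05 and 1.17e-05). The 10 adipocyte markers (among them Adipoq, Fabp4 and Plin1) had a median log2 ratio over the reference of 3.42 to 4.07 on each array. The 8 preadipocyte or fibroblast markers had one of -0.39 to -0.10, the 5 macrophage markers -0.090 to 0.25 and the 4 endothelial markers -0.21 to 0.037. Among these markers, Tek (endothelial) was higher than in control-si in both knockdowns, by 0.35 and 0.27, and Thy1 (fibroblast) in TIP60-si, by 0.26, while no other passed against control-si. One array stood apart: the median size of the log2 ratios, regardless of sign, was 0.055 on USP7-si replicate 4, against 0.109 to 0.148 on the other 11 arrays. Collagen genes called between the knockdowns are therefore given with and without it, and after scaling all arrays to an equal spread, which stretches the ratios of that array. For other genes the calls lost in these settings are named.

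In control-si adipocytes most collagen genes lay near the undifferentiated reference, 27 of 43 within 0.5 of 0, and a minority lay well below it. This is a description without a test, since the reference is a single RNA. Log2 ratios of sample over reference, corrected for the dye, were below -1 for 7 of the 43 collagen genes (16.3%, against 2% of all genes) and above 1 for 2 (4.65%, near the 2.94% of all genes). The median was -0.47 for the fibrillar collagens, 0.14 for those of the basement membrane and 0.0087 for the others, against -0.0019 for all genes. In such bulk samples, fewer cells of a type and less RNA per cell cannot be told apart.

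**Figure D1:**
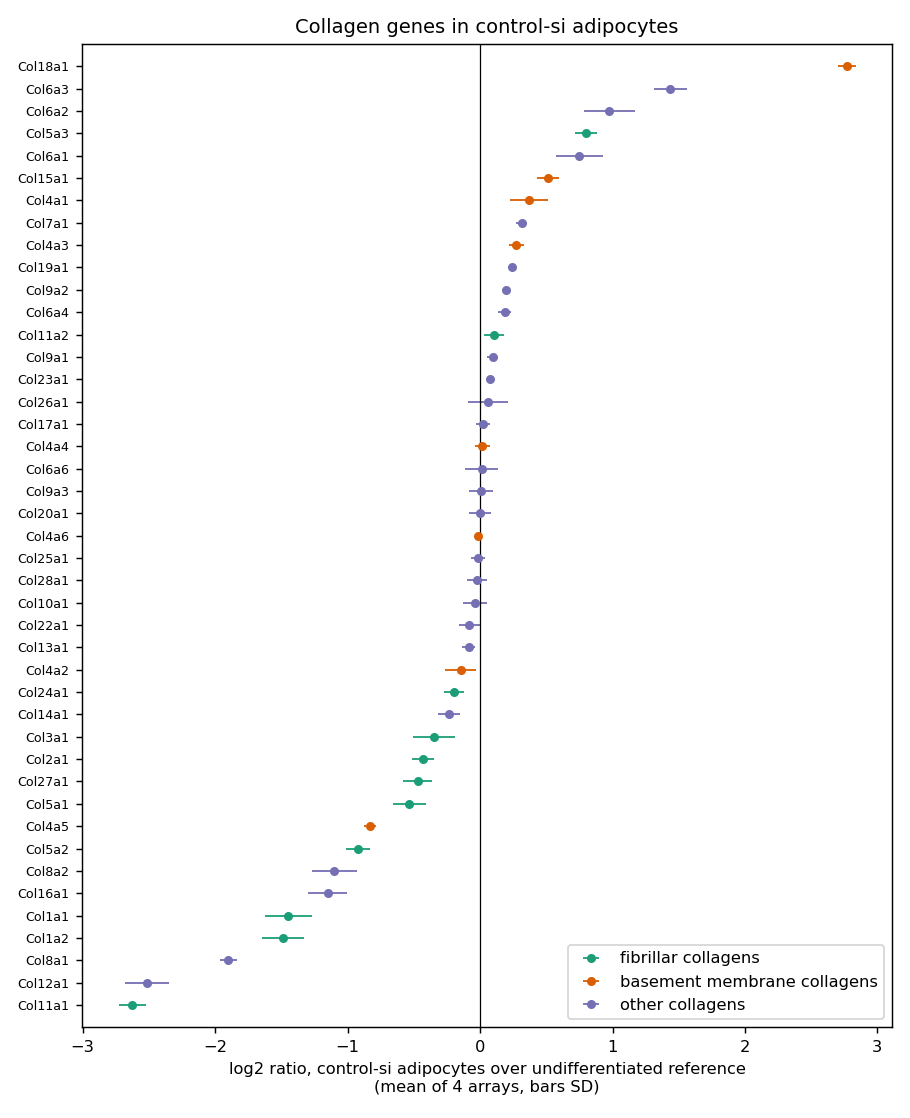
Log2 ratio of control-si adipocytes over the undifferentiated reference for the 43 collagen genes (points, mean of 4 arrays; bars, SD), ordered by value and coloured by class. Each gene is shown by its brightest probe. Col11a1 and Col12a1 are lowest at -2.63 and -2.52, and Col18a1 is highest at 2.77.

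Among the fibrillar collagens, 9 of 11 lay below the reference. Col11a1, a minor chain that nucleates thin fibrils, was the lowest collagen gene by the brightest probe, at -2.63 ± 0.10 (SD, n = 4). By that probe the reference held 6.17 times as much. The dimmer ones among its 4 probes read only -0.48 to -0.16, so the size of the difference depends on the probe. Col1a1 and Col1a2, the chains of type I collagen, stood at -1.45 ± 0.18 and -1.49 ± 0.16, a reference level 2.73 and 2.81 times that of control-si. Dimmer probes read -1.30 and 0.13 for Col1a1 and -0.47 for Col1a2, so these sizes, and the sign for Col1a1, depend on the probe. The reference signal of both brightest probes was near saturation (above 65000) on control-si replicate 3. Col5a2 and Col5a1, chains of the type V collagen that regulates fibril diameter, followed at -0.92 ± 0.09 and -0.53 ± 0.13. Col5a3, the third type V chain, lay on the other side at 0.80 ± 0.085 by its brightest probe. Dimmer probes of Col5a3 (MMAB032846) and Col5a1 (MMAB024615) read -0.29 and 0.17, so both signs depend on the probe. Col3a1, whose product forms fibrils with type I collagen, stood at -0.35 ± 0.16, and its probes disagreed: a dimmer one, MMAB038350, read 1.37.

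Outside the fibrils, Col18a1, which encodes the collagen that releases endostatin, was the highest at 2.77 ± 0.065, or 6.82-fold over the reference. Its second probe, MMAB025392, read 1.69. The 3 classical type VI chains were also above the reference, Col6a3 at 1.44 ± 0.13, Col6a2 at 0.98 ± 0.19 and Col6a1 at 0.75 ± 0.18. Dimmer probes read 0.018 to 0.76 for Col6a3 and 0.61 for Col6a2. Col6a4 and Col6a6 stood at 0.18 and 0.012. Col15a1, a basement membrane zone collagen, stood at 0.51 ± 0.08. Type IV was mixed: Col4a1 was at 0.37 ± 0.14 and Col4a2 at -0.15 ± 0.12. Dimmer probes read -0.19 to 0.65 for Col4a1 and 0.024 for Col4a2, so both signs depend on the probe. Col4a5, a chain found in basement membranes of kidney and smooth muscle, was at -0.83 ± 0.05. Col12a1, a FACIT collagen that binds to the surface of type I fibrils, was at -2.52 ± 0.16, Col16a1 at -1.15 ± 0.15 and Col8a2 at -1.10 ± 0.17. Dimmer probes read -2.58 to -0.052 for Col12a1 and 0.018 for Col16a1. Col8a1, a short-chain network collagen, stood at -1.90 ± 0.066 by its brightest probe. Its second probe, MMAB026352, of nearly equal brightness (mean log2 intensity 9.48 against 9.64), read -3.69 ± 0.034, a reference level 12.9 times that of control-si, so the order of the lowest genes depends on the probe. All 4 transmembrane collagens (Col13a1, Col17a1, Col23a1 and Col25a1) lay between -0.085 and 0.075. Their probes had mean log2 intensities from 7.31 (Col13a1) upwards, near the median of 7.41 over all gene probes.

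Setting USP7-si against control-si addresses a partial lowering of the Usp7 transcript in differentiated fat cells. No collagen gene passed the test (0 of 43, against 0.137% of all genes called by limma at an adjusted p below 0.05). At an unadjusted p below 0.05 there were 2, Col1a2 and Col4a5, both with the higher mean in USP7-si, against 7.21% of all genes. The median log2 fold change of the 43 genes was -0.0058, that of all genes 0.0039. Individual values ran from -0.19 (Col6a3) to 0.35 (Col1a2). In 1 collagen gene, Col4a6, all 4 USP7-si arrays lay below all 4 of control-si, and in 0 above, against 2.66% and 2.81% of all genes.

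The log2 ratio of Col1a2 was -1.36, -1.37, -1.54 and -1.69 on control-si replicates 1 to 4 and -1.13, -1.06, -0.98 and -1.39 on those of USP7-si. The groups overlapped only through USP7-si replicate 4, which fell between control-si replicates. The log2 fold change was 0.35 (SE 0.10, adjusted p = 0.435), 0.44 without that replicate (adjusted p = 0.204) and -0.051 after scaling to equal spread. The second Col1a2 probe, MMAB030403, gave 0.088. The Col1a2 reference signal was near saturation (above 65000) on 1 to 2 arrays of each group. Col1a1 had 0.20 (SE 0.13) and Col3a1 -0.098 (SE 0.12), neither of which passed.

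Setting TIP60-si against control-si addresses a partial lowering of the Kat5 transcript. It called 1 collagen gene, Col12a1, which fell. That is 1 of 43, against 5.21% of all genes, of which 1.46% were higher and 3.74% lower, so the share among collagens was not above the background. At an unadjusted p below 0.05, 7 were higher and 3 lower, against 8.34% and 12.6% of all genes. Over all probes 5 of 100 were called, against 3.78% of all gene probes, and these belonged to 4 genes. The median log2 fold change of the 43 genes was 0.0012, against -0.0047 for all genes.

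Col12a1 had log2 ratios of -2.28, -2.53, -2.67 and -2.58 on the control-si arrays, -2.60, -2.51, -2.50 and -2.59 on those of USP7-si and -2.97, -2.97, -2.88 and -2.72 on those of TIP60-si. All 4 TIP60-si arrays lay below the other 8. The log2 fold change in TIP60-si was -0.37 (SE 0.078, adjusted p = 0.0184), or 0.773 of control-si. A second probe of nearly equal brightness, MMAB021060, gave -0.49 (SE 0.091, adjusted p = 0.00915), and the dimmer MMAB031985 and MMAB028984 gave -0.085 and 0.037 without a call. The call of the brightest probe was lost without control-si replicate 2 (adjusted p = 0.0528), without TIP60-si replicate 1 (0.0587) and without TIP60-si replicate 2 (0.0557), while its fold change stayed between -0.43 and -0.28. After scaling to equal spread it was -0.026, without a call.

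Calls on a second probe were made for 3 further genes. The second probe of Col4a2, MMAB032601, rose by 0.38 (SE 0.091, adjusted p = 0.0345), with its brightest probe at 0.34 (adjusted p = 0.173). That of Col15a1, MMAB022587, rose by 0.44 (SE 0.10, adjusted p = 0.0287), and its brightest probe was at 0.22 (adjusted p = 0.206). That of Col1a2, MMAB030403, fell by 0.32 on the log2 scale (adjusted p = 0.0384), with the brightest probe at -0.016 and its reference signal near saturation on TIP60-si replicates 2 and 3. The 3 calls were each lost when 1 of several single arrays was left out.

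By the brightest probe, the largest positive log2 fold changes in TIP60-si among the collagens were those of Col6a2, 0.45 (SE 0.13, adjusted p = 0.0697), Col5a3, 0.39 (SE 0.13, adjusted p = 0.129), and Col6a1, 0.39 (SE 0.12, adjusted p = 0.101). None of the 3 passed the test, although in Col6a1 and Col6a2 all 4 TIP60-si arrays lay above all 4 of control-si. Without TIP60-si replicate 1, Col6a2 passed (0.54, adjusted p = 0.0425). Dimmer probes of Col5a3 and Col6a2 went the other way, at -0.089 and -0.10. Col4a1 had 0.23 and Col18a1 0.20 (adjusted p = 0.285). In Col8a1 the log2 ratios were -1.82, -1.98, -1.88 and -1.91 on control-si, -1.77, -1.80, -1.91 and -1.57 on USP7-si and -1.60, -1.69, -1.70 and -1.72 on TIP60-si. The TIP60-si arrays all lay above those of control-si and overlapped those of USP7-si. Its log2 fold change was 0.22 (SE 0.065, adjusted p = 0.0855), which passed in the authors' own values (0.23, adjusted p = 0.0328) and without USP7-si replicate 4 (adjusted p = 0.0302). The second probe gave 0.21 (adjusted p = 0.555). Collagen genes with all TIP60-si arrays above those of control-si numbered 3 (Col6a1, Col6a2 and Col8a1) and those with all below 2 (Col4a5 and Col12a1), against 5.78% and 8.4% of all genes.

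**Figure D2:**
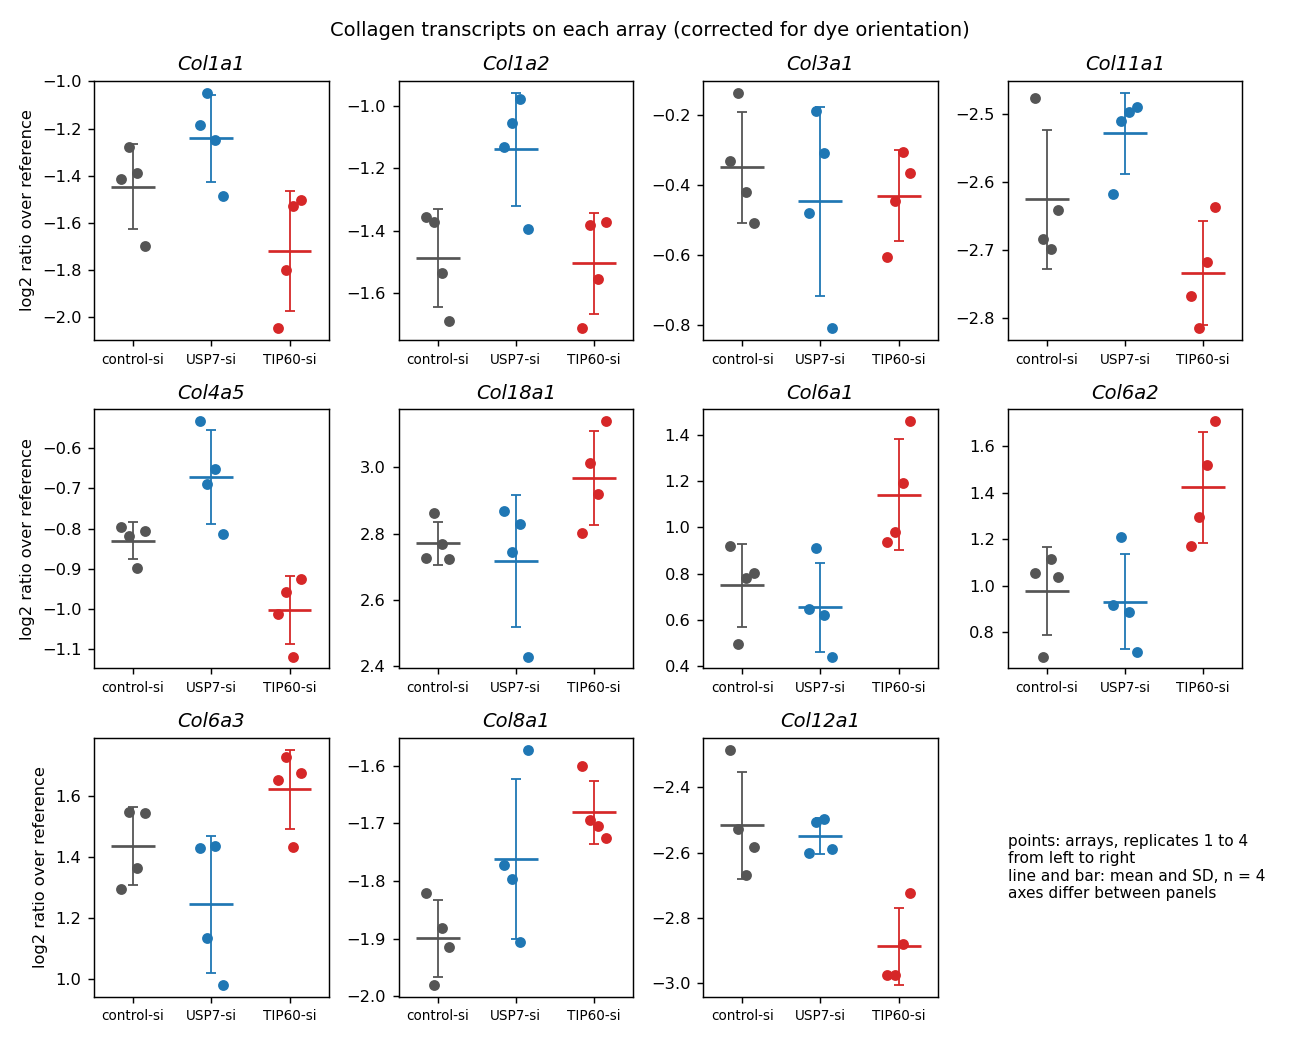
Log2 ratio over the reference on each of the 12 arrays for 11 collagen genes, with the mean and SD of each group (n = 4); vertical axes differ between panels. The TIP60-si points of Col12a1 lie below -2.7 and those of Col6a1 and Col6a2 above all control-si points, while USP7-si replicate 4, the rightmost USP7-si point, is the lowest of its group in 8 panels (Col1a1, Col1a2, Col3a1, Col4a5, Col18a1, Col6a1, Col6a2 and Col6a3).

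More collagen genes, and more genes in all, passed the test between the knockdowns than against control-si. In TIP60-si against USP7-si 7 of 43 were called, against 9.66% of all genes (3.03% higher and 6.62% lower in TIP60-si). All 7 were among the 29 brighter genes, where the background was 13.4%. The 3 higher in TIP60-si were the type VI chains Col6a1, Col6a2 and Col6a3, and the 4 lower were Col1a1, Col1a2, Col4a5 and Col12a1. After scaling to equal spread the difference turned sign in Col6a3, Col1a1, Col1a2, Col4a5 and Col12a1, kept it in Col6a1 and Col6a2, and 0 of 43 were called. Without USP7-si replicate 4, and with no scaling, 4 were called: Col1a1, Col1a2, Col4a5 and Col12a1. Over all probes 12 of 100 were called, in 9 genes, against 7.38% of gene probes. The comparison shares the TIP60-si arrays with that against control-si, so the 2 sets of values are not independent.

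The type VI chains had the largest positive differences. The log2 ratio of Col6a1 was 0.92, 0.50, 0.78 and 0.80 on control-si, 0.65, 0.91, 0.62 and 0.44 on USP7-si and 0.94, 0.98, 1.19 and 1.46 on TIP60-si. Every TIP60-si array lay above the other 8. Against USP7-si the log2 fold change was 0.49 (SE 0.12, adjusted p = 0.0283), or 1.40-fold, 0.41 without USP7-si replicate 4 (adjusted p = 0.0854) and 0.20 after scaling. The call was also lost without TIP60-si replicate 3 or 4 and without USP7-si replicate 1 or 3 (adjusted p = 0.0645 to 0.0833).

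Col6a2, the partner chain, had log2 ratios of 1.05, 0.69, 1.12 and 1.04 on control-si, 0.91, 1.21, 0.89 and 0.71 on USP7-si and 1.17, 1.30, 1.52 and 1.71 on TIP60-si. TIP60-si was above control-si throughout and overlapped USP7-si in a single array each. The difference from USP7-si was 0.49 (SE 0.13, adjusted p = 0.0314), 0.41 without USP7-si replicate 4 (adjusted p = 0.0943) and 0.073 after scaling. Leaving out TIP60-si replicate 3 or 4 or USP7-si replicate 1 or 3 ended the call too (adjusted p = 0.0782 to 0.0966). A much dimmer probe, MMAB028483, went the other way, at -0.11 (adjusted p = 0.676).

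Col6a3, which encodes the long chain whose cleaved end is the adipokine endotrophin, read 1.30, 1.55, 1.36 and 1.54 on control-si, 1.43, 1.14, 1.43 and 0.98 on USP7-si and 1.65, 1.73, 1.43 and 1.68 on TIP60-si. The lowest TIP60-si array fell among the USP7-si values. The difference was 0.38 (SE 0.10, adjusted p = 0.0393), 0.28 without USP7-si replicate 4 (adjusted p = 0.111) and -0.21 after scaling. It did not pass without control-si replicate 4, TIP60-si replicate 1, 2 or 4 or USP7-si replicate 2 either (adjusted p = 0.0517 to 0.0989). Its sample signal was near saturation on control-si replicates 2 and 4. The second probe, MMAB034943, gave 0.57 (adjusted p = 0.0112), 0.54 without USP7-si replicate 4 (adjusted p = 0.032) and 0.29 after scaling without a call. Of the 10 adipocyte markers 2 were higher in TIP60-si than in USP7-si and 0 lower, against 3.03% and 6.62% of all genes. They were the lipid droplet gene Cidec and the lipase gene Lipe, by 0.54 and 0.63 (adjusted p = 0.0126 and 0.0129). Of the 8 preadipocyte or fibroblast markers 1 was called higher and 0 lower. Their median log2 fold change was 0.075, and that of the adipocyte markers 0.21. The median of the 10 markers was 3.86 to 4.07 on TIP60-si, 3.42 to 3.85 on USP7-si and 3.57 to 4.06 on control-si arrays. Its lowest USP7-si value was that of replicate 4, while replicates 1 to 3 read 3.67, 3.73 and 3.85. The calls of Cidec and Lipe were not read without USP7-si replicate 4 or after scaling. The part of the markers in the type VI values was not tested.

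Type I differed in the opposite direction. Col1a1 had log2 ratios of -1.42, -1.28, -1.39 and -1.70 on control-si, -1.18, -1.05, -1.25 and -1.49 on USP7-si and -2.05, -1.80, -1.53 and -1.50 on TIP60-si. TIP60-si lay below USP7-si on every array, by a narrow gap, and overlapped control-si. The log2 fold change against USP7-si was -0.48 (SE 0.13, adjusted p = 0.0336), or 0.718 of USP7-si, -0.57 without USP7-si replicate 4 (adjusted p = 0.0201) and 0.081 after scaling. The call was lost without TIP60-si replicate 1 or 2 and without USP7-si replicate 1, 2 or 3, with values of -0.48 to -0.36 (adjusted p = 0.0789 to 0.0970). Against control-si it was -0.27 (adjusted p = 0.28), with the Col1a1 reference signal near saturation on control-si replicate 3. The second probe, MMAB012583, gave -0.29 (adjusted p = 0.308) and a dimmer one, MMAB037528, 0.18.

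Col1a2 on TIP60-si read -1.71, -1.38, -1.55 and -1.37, and overlapped the USP7-si values given above only through USP7-si replicate 4. The difference was -0.36 (SE 0.10, adjusted p = 0.0453), -0.46 without that replicate (adjusted p = 0.0146) and 0.22 after scaling. It did not pass in 7 single-array omissions, those of control-si replicates 2 and 3, TIP60-si replicates 1 and 3 and USP7-si replicates 1, 2 and 3, with values of -0.36 to -0.29 (adjusted p = 0.0508 to 0.154). The second probe gave -0.41 (SE 0.078, adjusted p = 0.00721), and -0.13 after scaling without a call. Col3a1 did not pass: its log2 ratios were -0.33, -0.14, -0.42 and -0.51 on control-si, -0.48, -0.19, -0.31 and -0.81 on USP7-si and -0.61, -0.45, -0.31 and -0.37 on TIP60-si. The 3 groups overlapped, and the difference between the knockdowns was 0.016 (SE 0.12). The Col3a1 reference signal was near saturation on TIP60-si replicate 3. The dimmer Col3a1 probe MMAB038350 gave 0.84 (SE 0.24, adjusted p = 0.0527).

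In Col4a5 the log2 ratios were -0.80, -0.82, -0.90 and -0.81 on control-si, -0.53, -0.69, -0.65 and -0.81 on USP7-si and -1.01, -0.96, -1.12 and -0.92 on TIP60-si. All TIP60-si arrays lay below the other 8. The difference from USP7-si was -0.33 (SE 0.062, adjusted p = 0.00637), a call kept without each single array, but it was 0.086 after scaling. Scaled without USP7-si replicate 4 it was -0.24 (adjusted p = 0.0236). The call was also lost with median centring in place of loess (adjusted p = 0.267), with no dye term and with the sample in Cy5 only. Against control-si Col4a5 had -0.17 (adjusted p = 0.151).

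Col12a1, with the values given above, was lower than in USP7-si by -0.34 (SE 0.078, adjusted p = 0.019), but stood at 0.87 after scaling and at 0.11 when scaled without USP7-si replicate 4. Its call was lost without TIP60-si replicate 1, 2 or 3 and without USP7-si replicate 3 (adjusted p = 0.0507 to 0.0680). Col11a1 read -2.48, -2.68, -2.70 and -2.64 on control-si, -2.62, -2.51, -2.50 and -2.49 on USP7-si and -2.77, -2.82, -2.72 and -2.64 on TIP60-si. TIP60-si lay below USP7-si on every array, and its difference of -0.21 (SE 0.059, adjusted p = 0.0509) did not pass. Col18a1, the highest collagen over the reference, read 2.73, 2.86, 2.77 and 2.72 on control-si, 2.87, 2.74, 2.83 and 2.43 on USP7-si and 2.80, 3.01, 2.92 and 3.14 on TIP60-si. The 3 groups overlapped and the difference between the knockdowns was 0.25 (adjusted p = 0.119). Its second probe, MMAB025392, was called (0.37, adjusted p = 0.0467), but not without USP7-si replicate 4 (0.23, adjusted p = 0.0697) nor in 8 other single-array omissions, and stood at -0.18 after scaling. The second probe of Col4a2 was also called (0.37, adjusted p = 0.0243), and not without that array (adjusted p = 0.0587) or any of 4 others.

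**Figure D3:**
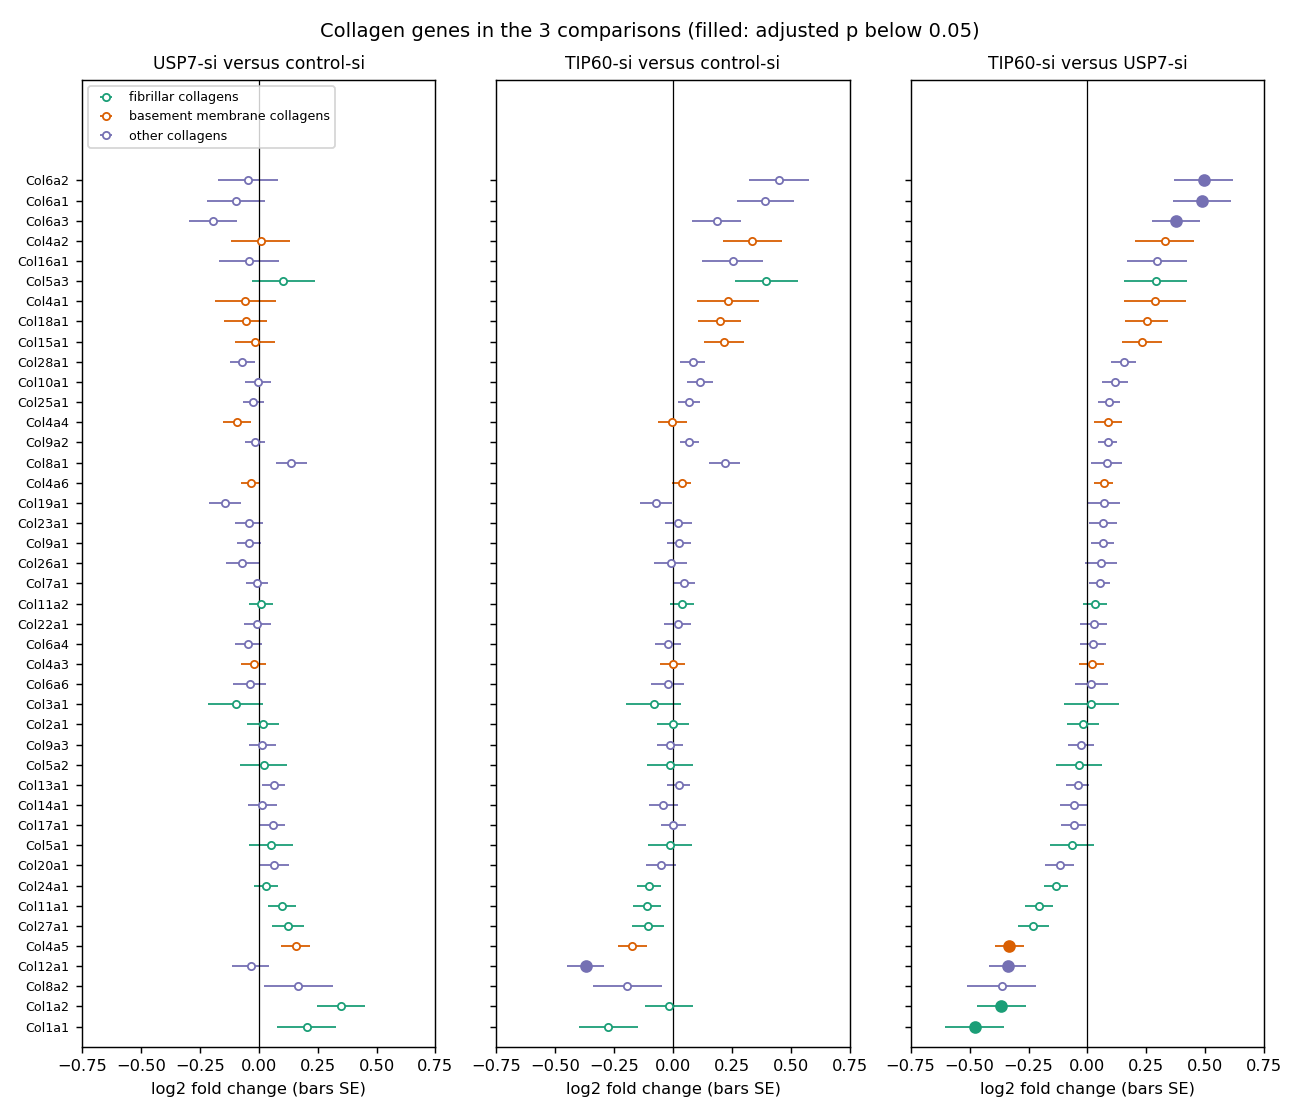
Log2 fold change (points) with its SE (bars) of the 43 collagen genes in the 3 comparisons, all in the order of TIP60-si versus USP7-si, with filled points for an adjusted p below 0.05. The filled points number 0, 1 and 7. After scaling to equal spread none is called, and of the 7 the signs of Col6a3, Col1a1, Col1a2, Col4a5 and Col12a1 turn.

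By class, 8 of 11 fibrillar collagens had the lower mean in TIP60-si than in USP7-si (2 called), with a median log2 fold change of -0.065, which became -0.12 without USP7-si replicate 4 and 0.20, with 4 of 11 lower, after scaling. Among the basement membrane collagens 7 of 8 had the higher mean, with a median of 0.16 (0.10 and 6 of 8 without USP7-si replicate 4, and 0.078 and 6 of 8 after scaling), and the 1 call was Col4a5, the exception. All 5 beaded filament collagens had the higher mean, with a median of 0.38 and 3 called, but Col6a4 and Col6a6 differed by only 0.022 and 0.016. Without USP7-si replicate 4 the median was 0.28 with all 5 higher, and after scaling 0.021 with 3 of 5 higher. The median of all 43 was 0.031 and that of all genes -0.007. Of all 18295 genes, 8610 had the higher and 9685 the lower mean in TIP60-si, and 3.03% and 6.62% were called. The class counts were not tested against these shares. Without overlap between the groups, 5 collagen genes were higher (Col4a6, Col6a1, Col9a2, Col10a1 and Col28a1) and 6 lower (Col1a1, Col4a5, Col11a1, Col12a1, Col24a1 and Col27a1), against 7.28% and 11.1% of all genes.

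The order of the collagens in that comparison followed their level over the reference, which was computed from control-si arrays that the comparison does not use. Across the 43 genes Pearson's r was 0.67 and Spearman's rho 0.65, and without USP7-si replicate 4 they were 0.61 and 0.63. Across all 18295 genes r was 0.39. After scaling to equal spread r was -0.82 across the 43 genes and -0.73 across all genes. Scaled without USP7-si replicate 4 these were -0.27 and -0.31. The sign of the relation, among collagens and all genes alike, therefore rests on how the spread of the arrays is treated. Genes are not independent replicates, all points share the same arrays and reference RNA, and no p is given.

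**Figure D4:**
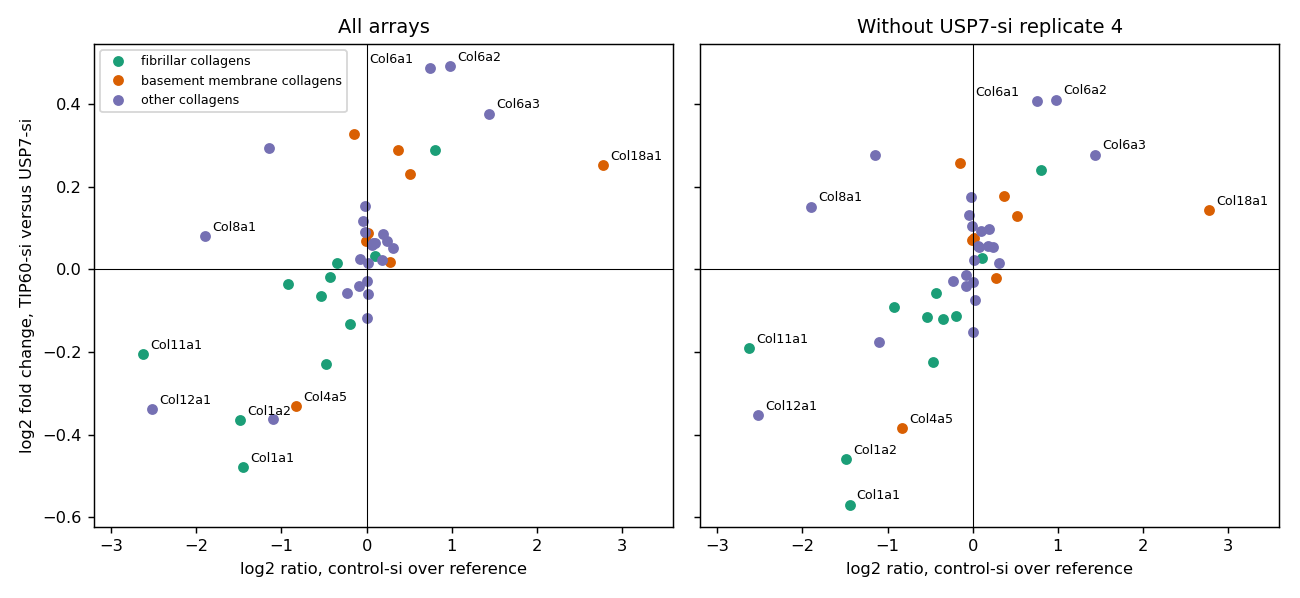
Log2 fold change of TIP60-si versus USP7-si against the log2 ratio of control-si over the reference for the 43 collagen genes, with all arrays (left) and without USP7-si replicate 4 (right), both unscaled. The points rise from Col1a1 and Col12a1 at lower left to the type VI genes at upper right (r 0.67 and 0.61). After scaling to equal spread r is -0.82, and -0.73 across all genes.

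Genes that make, process and bind collagen were read from the same fit. In USP7-si against control-si 0 of the 70 measured members of 5 lists passed limma's test, against 0.137% of all genes, with 4 at an unadjusted p below 0.05, against 7.21%. In TIP60-si 5 of the 70 were higher and 3 lower than in control-si, against 1.46% and 3.74% of all genes. Relative to USP7-si, 7 were higher and 10 lower, against 3.03% and 6.62%. Of the genes brighter than the median probe 13.4% were called between the knockdowns, and the 70 members were not split by brightness. The 8 calls against control-si were all lost after scaling to equal spread (adjusted p = 0.0820 to 0.659) and with median centring (0.265 to 0.987), and all 8 were made when scaled without USP7-si replicate 4. Of the 17 calls between the knockdowns, 8 were made without USP7-si replicate 4 (Sec23a, Sec24d, Ddr1, Itga11, Nid1, Nid2, Tgfbr1 and Tgfbr3), 1 after scaling (Nid2, adjusted p = 0.0126), 0 with median centring (lowest adjusted p 0.158) and 14 in the authors' own values (not Tll1, Lamb2 and Tgfb2). Of 20 measured genes for modifying, folding and exporting procollagen, 2 fell in TIP60-si against control-si and 0 rose. Both belong to the COPII coat that carries procollagen out of the endoplasmic reticulum: Sec23a at -0.43 (SE 0.071, adjusted p = 0.00486) and Sec24d at -0.32 (SE 0.048, adjusted p = 0.00323). They were also lower than in USP7-si, at -0.46 and -0.35, as was the prolyl 3-hydroxylase gene P3h1 at -0.26 (adjusted p = 0.022). P3h1 did not pass in 4 single-array omissions, among them that of USP7-si replicate 4 (adjusted p = 0.0643), and stood at 0.093 after scaling. Of 14 genes for processing and crosslinking, 2 rose: Bmp1, a protease that removes the C-propeptide of fibrillar procollagens, by 0.41 (SE 0.082, adjusted p = 0.0145), and its relative Tll1 by 0.35 (SE 0.078, adjusted p = 0.0235). Bmp1 did not pass without control-si replicate 2 (adjusted p = 0.0560), nor Tll1 without control-si replicate 1 or 3 or TIP60-si replicate 1, 2 or 3 (adjusted p = 0.0541 to 0.0798). Against USP7-si these were higher by 0.30 and 0.29, and the collagen-binding matrix gene Sparc was lower, at -0.35 (adjusted p = 0.0247) but 0.092 after scaling. Each of these 3 calls was lost in 6 single-array omissions, among them that of USP7-si replicate 4 (adjusted p = 0.107, 0.109 and 0.0510).

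Of 10 collagen receptors 0 passed in TIP60-si against control-si, where 2 had an unadjusted p below 0.05, against 8.34% of all genes with the higher and 12.6% with the lower mean. Between the knockdowns 2 were lower in TIP60-si, the receptor kinase gene Ddr1 at -0.33 (adjusted p = 0.0185) and the integrin gene Itga11 at -0.29 (adjusted p = 0.00484), the latter at 0.27 after scaling. Ddr1 did not pass in 4 single-array omissions (adjusted p = 0.0579 to 0.0686). Of 14 basement membrane partners, the nidogens, which link laminin to type IV collagen, parted: Nid1 rose by 0.40 (SE 0.067, adjusted p = 0.00513) and Nid2 fell, at -0.45 (SE 0.098, adjusted p = 0.0208). The Nid2 call was lost without control-si replicate 1, 2 or 4 or TIP60-si replicate 1, 2 or 3 (adjusted p = 0.0529 to 0.0763). Against USP7-si 2 were higher, Nid1 by 0.35 and the laminin gene Lamb3 by 0.31, and 3 lower, Nid2 at -0.58, the laminin gene Lamb2 at -0.33 (0.019 after scaling) and the agrin gene Agrn at -0.31. Lamb3, Lamb2 and Agrn did not pass without USP7-si replicate 4 (adjusted p = 0.0719, 0.0719 and 0.0645). With that omission included, their calls were lost in 4, 4 and 5 single-array omissions. Of 12 genes of the TGF-beta pathway, a main inducer of fibrillar collagens, 2 rose against control-si: the receptor gene Tgfbr1 by 0.42 (SE 0.05, adjusted p = 0.000689) and Smad3, which carries the signal to the nucleus, by 0.28 (SE 0.06, adjusted p = 0.0191). Smad3 did not pass without control-si replicate 2 or 4 or TIP60-si replicate 2 (adjusted p = 0.0557 to 0.0715). Against USP7-si, 3 were higher (Tgfbr1 by 0.33, Tgfbr3 by 0.42 and Smad3 by 0.23) and 1 lower (Tgfb2 at -0.24), and Tgfbr1 stood at -0.027 after scaling. Without USP7-si replicate 4 Smad3 and Tgfb2 did not pass against USP7-si (adjusted p = 0.0573 and 0.124). With that omission included, these 2 calls were lost in 6 and 9 single-array omissions. Tgfb2 also failed in the authors' own values (adjusted p = 0.220).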

How the data were processed

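RNA was measured on 12 two-colour arrays. Per the labels' protocols, the authors scanned them on an Agilent G2565BA scanner, used Imagene for feature extraction, and normalized the gene probes by print-tip loess with no background correction; software versions are not given in the sources used here. The deposited scanner files hold the intensity of each spot and its local background per dye, and the deposited value table holds log2 ratios, which equal sample over reference in the authors' normalized intensity files to within 5e-06, with column medians of -0.00915 to 0.00526. The scanner intensities were used, with the authors' values as an alternative: normexp background correction (offset 50), loess within arrays with control spots at weight 0, and no scaling between arrays. Between 85.2% and 98.3% of gene probes stood 2 background SDs above background.

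Limma 3.58.1 (R 4.3.3) fitted group and dye orientation over all 12 arrays with lmFit and eBayes, two-sided, with Benjamini-Hochberg adjustment over 41174 probes and a threshold of 0.05. Group means are of dye-corrected log2 ratios, errors of means are SDs and errors of fold changes are model SEs. The tests were run on simulated data first. Of the gene probes, 34186 had 1 symbol, 6988 none and 0 several, and 3726 symbols were updated. Same-numbered arrays of different groups had correlated deviations of -0.29 to 0.31, so replicate numbers do not pair the samples. The precision is limited by the number of arrays.

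Per-array values are given for Col1a1, Col3a1 and Col12a1, for every collagen gene called by its brightest probe, for the 3 smallest p in each comparison and for the 3 highest and 3 lowest genes over the reference; called second probes, called list members and list members with small p are also read. The collagen genes and all lists were chosen with earlier results of these data known. Alternatives covered the source of the values, background correction, normalization, scaling, the dye term, the replicate block, array weights, a filter on dim probes, each dye orientation, the probe taken per gene and each array left out.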

Additional observations from a re-analysis of the deposited data

Results flagged for a closer look

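In Col11a1, the lowest collagen over the reference by the brightest probe, 1 array stood away from its group. USP7-si replicate 1 read -2.62, while the other 3 USP7-si arrays lay between -2.51 and -2.49. Its distance from the nearest of them was 0.836 of the range of the group, above Dixon's critical value for 4 samples. Chance gives such a value in about 1 in 20 groups, and 33 groups (11 genes in 3 groups) were examined with 1 such value. The array lies within the range of control-si for this gene.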

How the results depend on the processing

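The number of collagen genes called in USP7-si against control-si was 0 under all 25 alternatives. In TIP60-si against control-si it was 1, and became 2 with the authors' values or with no background correction, 4 if any probe of a gene counted, and 0 with median centring in place of loess, with scaling to equal spread and with either dye orientation alone. Leaving out single arrays gave 0 to 2 calls, and a median log2 fold change of the collagen genes between 0.0012 and 0.039. In TIP60-si against USP7-si the 7 calls became 0 with median centring or scaling, 2 with no dye term, 3 with the sample in Cy3 only, 1 in Cy5 only and 2 to 9 without single arrays. The median of 0.031 became -0.031 with median centring and lay between 0.013 and 0.070 without single arrays. Alternatives chosen after seeing the data were scaling without USP7-si replicate 4 (2 called between the knockdowns) and the authors' values without it (4, and 2 against control-si). With the replicate block the counts were 0, 1 and 6, the one loss being Col6a3 (adjusted p = 0.0514). Under median centring the median of the brighter genes was -0.107 in TIP60-si against control-si and -0.119 against USP7-si, a move of -0.0979 and -0.107.

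Scaling to equal spread reversed, in USP7-si against control-si, Col1a2 (-0.051), Col4a5 (-0.14) and Col8a1 (-0.40), the last also without USP7-si replicate 4 (-0.017). In TIP60-si against USP7-si it reversed Col1a1 (0.081), Col1a2 (0.22), Col4a5 (0.086), Col6a3 (-0.21), Col12a1 (0.87, and 0.80 on its second probe), the second probe of Col18a1 (-0.18), P3h1 (0.093), Sparc (0.092), Itga11 (0.27), Lamb2 (0.019) and Tgfbr1 (-0.027). Scaled without USP7-si replicate 4, Col12a1 (0.11, second probe 0.040) and the second Col18a1 probe (-0.048) still differed in sign. The cause was not tested. Over all gene probes, calls ranged from 0 to 77, 26 to 1843 and 41 to 4061 in the 3 comparisons, against 35, 1556 and 3037 as reported.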
